A study of Mus musculus with 12 samples.

Results

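The 8 genes described here, Rag1, Rag2, Dntt, Arpp21, Cd24a, Cd1d1, Myb and Rmnd5a, are genes of antigen receptor recombination and of CD4+CD8+ (double-positive) thymocytes. They were taken by symbol from the table of normalised counts, in which all 8 were found, out of 48663 gene rows of the study. RNA sequencing had been done on 12 libraries of sorted C57BL/6 mouse T cells, 3 in each of 4 groups, with 40000 cells sorted for each. The CD8αα groups were TCRβ+ cells sorted for CD45 and CD8α without CD4 or CD8β. These were splenocytes of knockout (KO) mice, labelled Cd4 Cre+ lrffl/fl, and intraepithelial lymphocytes (IELs) of control mice, labelled Cd4 Cre- lrffl/fl. The other groups were thymic precursors of IELs (IELp) of KO and of control mice. IELp were sorted as TCRβ+ cells without CD4, CD8α or CD44 that carried CD122, H-2Kb and high levels of PD-1 and CD5. Both KO and control mice carried the floxed alleles, and they differed in genotype by the Cre transgene. Cd4-Cre is driven by regulatory elements of Cd4, which become active in thymocytes at about the double-positive stage, and LRF is the zinc finger transcription factor encoded by Zbtb7a. The labels state neither ages nor floxed exons, nor whether replicates came from separate mice. The p-values therefore measure the spread between these samples, which may be technical.

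Antigen receptor genes are assembled in developing lymphocytes by V(D)J recombination. The RAG1 and RAG2 proteins together cut DNA beside the gene segments, terminal deoxynucleotidyl transferase (the product of Dntt) adds bases without a template, and the end joining machinery seals the breaks. In the αβ T cell lineage, double-positive thymocytes recombine Tcra and are then selected, after which RAG expression stops and CD24 is lost from the surface as the cells mature. Precursors of CD8αα IELs are selected by strong signals from self antigens, lose CD4 and CD8, and leave the thymus for the gut.

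The sequences just upstream of the recombination genes are shown first, with that of Rmnd5a, a member detected in all 12 libraries, for contrast. Each is the 250 bases before the RefSeq start site, written 5′ to 3′ on the gene's strand in build GRCm38.p6. They are Rag1 at chr2:101649533-101649782 on the minus strand, Rag2 at chr2:101624462-101624711 on the plus strand, Dntt at chr19:41029025-41029274 on the plus strand and Rmnd5a at chr6:71440638-71440887 on the minus strand. Capitals mark matches to the E-box CAGNTG on either strand, the kind of site bound by the E proteins encoded by Tcf3 and Tcf12.
Rag1: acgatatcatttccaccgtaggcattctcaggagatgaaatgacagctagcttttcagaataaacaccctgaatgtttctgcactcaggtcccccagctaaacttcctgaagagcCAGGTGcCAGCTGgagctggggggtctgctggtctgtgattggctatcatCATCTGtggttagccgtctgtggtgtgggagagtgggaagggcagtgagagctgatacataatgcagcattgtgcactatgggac
Rag2: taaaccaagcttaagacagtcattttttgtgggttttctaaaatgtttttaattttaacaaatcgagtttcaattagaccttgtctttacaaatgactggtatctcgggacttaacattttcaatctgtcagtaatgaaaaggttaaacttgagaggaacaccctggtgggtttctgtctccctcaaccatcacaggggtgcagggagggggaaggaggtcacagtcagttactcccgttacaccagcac
Dntt: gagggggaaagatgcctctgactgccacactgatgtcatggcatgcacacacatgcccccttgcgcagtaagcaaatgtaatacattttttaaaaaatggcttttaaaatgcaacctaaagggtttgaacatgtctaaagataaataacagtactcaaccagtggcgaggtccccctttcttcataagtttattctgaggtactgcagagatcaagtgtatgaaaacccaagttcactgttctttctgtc
Rmnd5a: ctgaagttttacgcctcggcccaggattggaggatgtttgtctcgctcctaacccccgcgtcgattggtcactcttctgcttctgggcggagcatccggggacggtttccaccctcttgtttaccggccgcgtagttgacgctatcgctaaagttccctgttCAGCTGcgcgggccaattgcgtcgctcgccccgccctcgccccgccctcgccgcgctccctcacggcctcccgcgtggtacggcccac

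The Rag1 window held 3 E-box matches and the Rmnd5a window 1, whereas the Rag2, Dntt and Myb windows held 0. Of 32851 mouse windows of the same length, 44.8% held at least 1. The RUNX core TGTGGT was found 2 times before Rag1, and 1 of these overlapped an E-box. It was not found before Rag2, Dntt, Myb or Rmnd5a, and 14.0% of all windows held it. The MYB core AACNG was found 2 times before each of Rag2, Dntt and Rmnd5a, none overlapping an E-box, and not before Rag1 or Myb. This short motif was in 74.2% of all windows. Of the 8 genes, 6 had entries, and Arpp21 had 9 different ones, so its start was not shown.

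Between 13432598 and 19947734 counts per library were assigned to genes. Levels are given as FPM, the authors' normalised values, which equal CPM over the counts of all genes and are not corrected for gene length. In a library with 0 counts of a gene, 3 counts, equal to between 0.150 and 0.223 FPM at these depths, were taken as the upper limit, for counting error only. Zbtb7a transcript averaged 61.3 ± 2.13 FPM in KO spleen cells and 111 ± 8.91 FPM in control IELs, and 45.5 ± 4.66 FPM in KO IELp and 75.4 ± 6.27 FPM in control IELp (SD, n = 3 each). It was thus lower in the KO libraries but not absent, and which of its exons gave these counts was not tested. All 6 T cell markers (Cd3d, Cd3e, Cd3g, Cd247, Trac and Lck) were abundant, with sums between 5022 and 8855 FPM. Of the coreceptor genes of double-positive thymocytes, Cd4 averaged 1.99 FPM in KO and 7.42 FPM in control IELp, and Cd8b1 6.18 FPM in KO and 4.28 FPM in control IELp. Replicate 3 of the control IELs stood apart from the other IEL libraries, with gut epithelial markers at 702 FPM in sum against 518 and 571 FPM. Most of these sums was Cdh1 (369, 421 and 400.3 FPM in IEL replicates 1 to 3), whereas the keratin gene Krt8 had 22.6 FPM in replicate 3 against 1.35 and 1.54 FPM in the others.

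**Figure D1:**
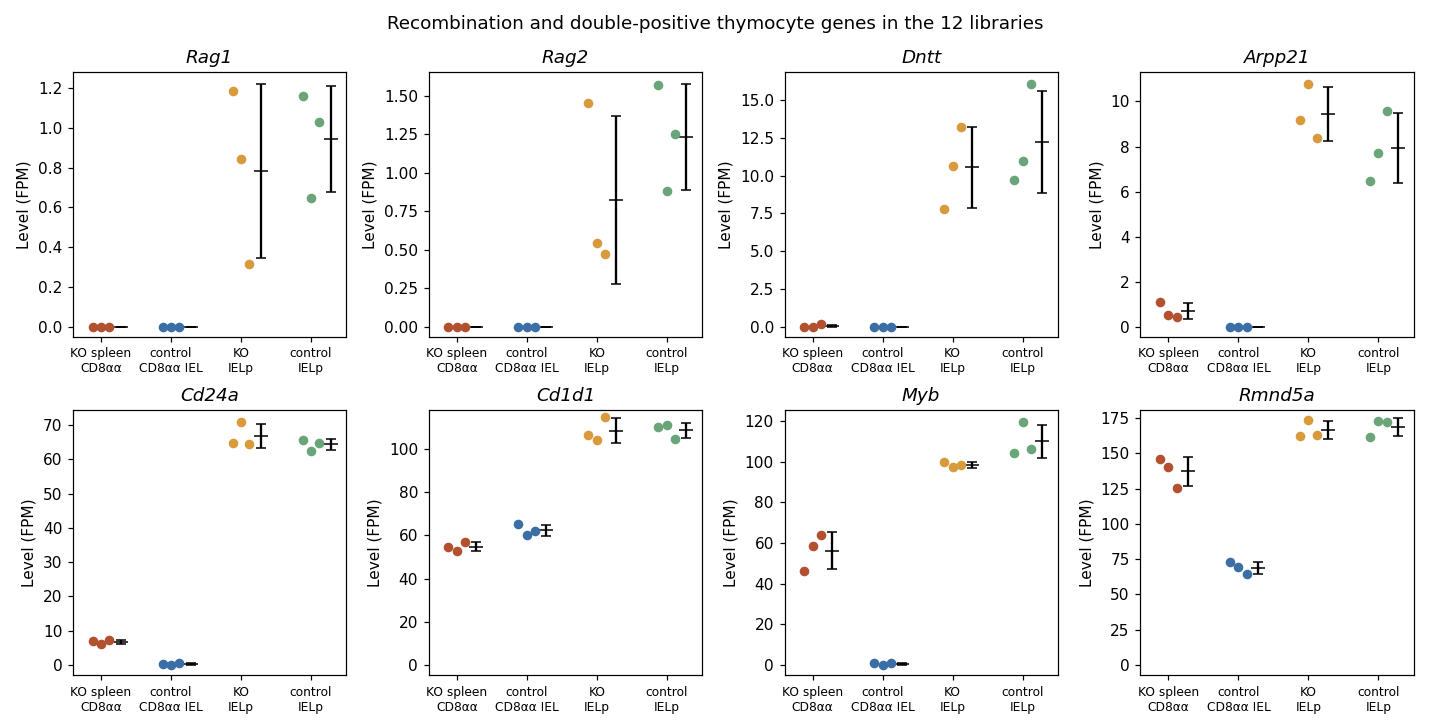
Level of each of the 8 genes in the 12 libraries, in FPM on a linear axis that differs between panels, with 1 point per library and the mean ± SD (n = 3) beside each group. Rag1, Rag2 and Dntt are at or near 0 in both CD8αα groups, Cd24a and Myb are lowest in control IELs, and Cd1d1 and Rmnd5a stay above 50 FPM in all 12 libraries.

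In both IELp groups all 8 were detected in all 6 libraries, and KO and control IELp overlapped for 7 of them. Of the 14629 genes tested in that comparison, 29.7% did not overlap. Per kilobase of annotated exon, mean levels in control IELp ran from Cd1d1 at 42.3 FPM per kb, through Cd24a and Rmnd5a at 24.9 FPM per kb each and Myb at 12.3 FPM per kb, to Dntt at 5.33 FPM per kb. Arpp21 at 0.454, Rag2 at 0.361 and Rag1 at 0.143 FPM per kb were the lowest. Control IELs had 57.4% of the mean Cd1d1 level of control IELp and 40.8% of that of Rmnd5a. They had 0.572% for Myb, 0.317% for Cd24a and none for Rag1, Rag2, Dntt and Arpp21. KO spleen cells had 82.5% of the mean Rmnd5a level of KO IELp, 57.1% of Myb and 50.3% of Cd1d1. They had 10.1% of Cd24a, 7.34% of Arpp21 and 0.471% of Dntt. These are ratios of group means, and descent between the groups was not tested. In these sorted bulk samples, fewer cells with a transcript and less transcript per cell cannot be told apart.

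Rag1 and Rag2 lie next to each other on chromosome 2, at chr2:101638282-101649501 on the minus strand and chr2:101624718-101632529 on the plus strand (mm10, GENCODE M21). Rag1 had 0 counts in all 6 CD8αα libraries, against 18, 14 and 6 counts in KO IELp (1.19, 0.843 and 0.316 FPM) and 17, 11 and 14 counts in control IELp (1.16, 0.647 and 1.03 FPM). Rag2 likewise had 0 counts in all 6 CD8αα libraries, against 22, 9 and 9 counts in KO IELp (1.45, 0.542 and 0.475 FPM) and 23, 15 and 17 counts in control IELp (1.57, 0.882 and 1.25 FPM). Both genes of the recombinase were thus at the edge of detection in the precursors and undetected in the CD8αα groups, and the IELp genotypes overlapped. In control IELs against control IELp, the floor of 3 counts over the group gave at least 15.5-fold lower Rag1 (0 against 42 counts). Rag2 was at least 20.4-fold lower there (0 against 55 counts). In KO spleen cells against KO IELp, Rag1 was at least 13.1-fold lower (0 against 38 counts) and Rag2 at least 13.7-fold lower (0 against 40 counts). Neither passed the filter on low counts in that comparison. In the control comparison both passed it through the IELp libraries alone and so had to differ, and no p-value is given for a gene at or near 0 in 1 group.

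Between the IELp genotypes, Rag1 had a log2 fold change of -0.27 ± 0.51 (SE) and Rag2 of -0.58 ± 0.49, KO over control. The edgeR adjusted p-values were 0.798 and 0.506. At these counts the 95% intervals of the fold were wide, from 0.393 to 1.76 for Rag1 and from 0.326 to 1.37 for Rag2. Changes within those bounds are thus not excluded. Replicate 1 of the KO IELp had the most counts of both genes among the KO IELp libraries, and without it the Rag2 log2 fold change was -1.24 with an edgeR adjusted p of 0.194. A neighbouring gene, B230118H07Rik, shares 80 exonic bases with Rag1 and 208 with Rag2, and reached at most 0.751 FPM.

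Dntt (chr19:41029275-41059525, plus strand) had the highest level per kilobase of the 3 recombination genes in IELp. It had 0, 0 and 2 counts in KO spleen cells, of which the last equals 0.149 FPM, and 0 counts in the 3 control IEL libraries. In the precursors it had 7.79, 10.7 and 13.2 FPM in KO IELp and 9.69, 10.9 and 16.1 FPM in control IELp. The CD8αα and IELp libraries did not overlap, whereas KO and control IELp did. Control IELs were at least 202-fold lower than control IELp (0 against 546 counts). KO spleen cells had 2 counts against 545 in KO IELp, a ratio of 281-fold lower with a 95% counting interval from 77.4 to 2325. Both counts were in spleen replicate 3, without which the fitted log2 fold change was -10.5 (against 0 counts, a value that depends on the prior count) instead of -7.75, and it was -7.14 without spleen replicate 1. Between the IELp genotypes the log2 fold change was -0.18 ± 0.21 (edgeR adjusted p = 0.658), with a 95% interval of the fold from 0.646 to 1.21. Within KO IELp the library with the most Rag1 and Rag2 had the least Dntt.

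Arpp21 encodes an RNA-binding phosphoprotein that is abundant in double-positive thymocytes (chr9:112065091-112235938, minus strand, with the gene of miR-128-2 in an intron). Its levels were 1.10, 0.530 and 0.447 FPM in KO spleen cells (22, 10 and 6 counts) and 0 in the 3 control IEL libraries. They were 9.18, 10.8 and 8.39 FPM in KO IELp and 6.48, 7.70 and 9.57 FPM in control IELp. Arpp21 thus separated the CD8αα groups, which did not overlap, while the IELp genotypes overlapped. KO spleen cells were lower than KO IELp by a log2 fold change of -3.59 ± 0.30, in a test that it entered through KO IELp, since 1 of 3 spleen libraries reached the filter's level. Control IELs were at least 132-fold lower than control IELp (0 against 356 counts). KO spleen cells were at least 12.2-fold higher than control IELs (38 against 0 counts), a pair in which Arpp21 did not pass the filter on low counts. Between the IELp genotypes the log2 fold change was 0.28 ± 0.18 (edgeR adjusted p = 0.375). The antisense gene 2900079G21Rik shares 580 exonic bases with Arpp21 and reached at most 1.57 FPM.

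Cd24a encodes CD24, the heat stable antigen, a lipid-anchored surface protein that immature thymocytes carry and mature T cells lose (chr10:43578284-43584265, plus strand). It had 6.97, 5.98 and 7.22 FPM in KO spleen cells, against 0.123, 0 and 0.489 FPM (2, 0 and 9 counts) in control IELs. In the precursors it had 64.9, 70.8 and 64.4 FPM in KO IELp and 65.7, 62.5 and 64.7 FPM in control IELp. All 6 IELp libraries were thus above the KO spleen cells, and these were above the control IELs, while the IELp genotypes overlapped. KO spleen cells were lower than KO IELp by a log2 fold change of -3.20 ± 0.11 (edgeR adjusted p = 8.84e-11). Control IELs were lower than control IELp, with a log2 fold change of -7.93 ± 0.32. Against control IELs, KO spleen cells were higher by 4.79 ± 0.56, or 27.7-fold. No control IEL library reached the filter's level for Cd24a, so it entered both of these tests through the other group and had to differ. No p-value is therefore given for them. The size of both differences rested on IEL replicate 3, which held 9 of the 11 Cd24a counts. Without it the log2 fold change was -9.61 against control IELp and 6.48 for KO spleen cells over control IELs.

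CD24 is also made by B cells and myeloid cells, and their markers were in the spleen libraries. Red cells also carry it, and the 6 red cell markers summed to 10.3, 9.80 and 1.56 FPM in KO spleen cells, against 0.737 to 0.869 FPM in control IELs and 0.158 to 0.963 FPM in KO IELp. Of 7 B cell markers, Ms4a1 averaged 12.6 FPM in KO spleen cells and had 0 counts in control IELs and KO IELp. The sum of the 7 was 1221 to 1259 FPM in KO spleen cells, 459 to 655 FPM in control IELs, 553 to 581 FPM in KO IELp and 433 to 447 FPM in control IELp, most of it Ighm. The myeloid markers Lyz2 (12.3 FPM), C1qb (5.31 FPM) and Adgre1 (2.48 FPM) were also found in KO spleen cells, and C1qb and Adgre1 had 0 counts in control IELs. The sum of the 8 myeloid markers was 171 to 191 FPM in KO spleen cells, 330 to 455 FPM in control IELs, 109 to 111 FPM in KO IELp and 104 to 124 FPM in control IELp. In control IELs most of that sum was Itgax, at 305 FPM, and 4 of the 8, Adgre1, C1qa, C1qb and Flt3, had 0 counts. The part of B cell, myeloid or red cell RNA in the Cd24a, Arpp21 and Myb levels of the spleen libraries was not tested.

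Cd1d1 encodes CD1d, which presents lipids and, on double-positive thymocytes, selects natural killer T cells (chr3:86995834-86999441, minus strand). It had 54.5, 52.6 and 56.8 FPM in KO spleen cells and 65.3, 60.0 and 61.8 FPM in control IELs. In the precursors it had 106, 104 and 115 FPM in KO IELp and 110.1, 111 and 105 FPM in control IELp. The order of the means was control IELp, KO IELp, control IELs and KO spleen cells, and of the neighbours in it the IELp groups alone overlapped. KO spleen cells were lower than KO IELp by a log2 fold change of -0.88 ± 0.07 (edgeR adjusted p = 4.07e-07). Control IELs were lower than control IELp by -0.57 ± 0.07 (edgeR adjusted p = 5.69e-05), and KO spleen cells lower than control IELs by -0.31 ± 0.08 (edgeR adjusted p = 0.00659). The last of these no longer passed in limma on the FPM values, where it was -0.19 (adjusted p = 0.0604) beside a median of 0.11 over all genes. Between the IELp genotypes the log2 fold change was 0.02 ± 0.07 (edgeR adjusted p = 0.891), with a 95% interval of the fold from 0.917 to 1.12. Of the 76-base windows of Cd1d1 transcripts, 14.0% were also found in Cd1d2, its neighbour and near copy, so its count is uncertain by the reads that could not be placed. Cd1d2 itself averaged 1.98 FPM in KO spleen cells and 1.26 FPM in control IELs, and 6.89 FPM in KO IELp and 5.85 FPM in control IELp.

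Myb encodes a transcription factor of immature blood cells that double-positive thymocytes need to survive while Tcra is recombined (chr10:21124935-21160984, minus strand). It had 46.3, 58.6 and 64.1 FPM in KO spleen cells, against 0.676, 0.129 and 1.09 FPM (11, 2 and 20 counts) in control IELs. In the precursors it had 100.1, 97.4 and 98.3 FPM in KO IELp, against 105, 119.5 and 107 FPM in control IELp. No pair of groups overlapped, and the CD8αα groups were far apart from each other. KO spleen cells were higher than control IELs by a log2 fold change of 6.29 ± 0.32, or 78.3-fold. They were lower than KO IELp, with -0.70 ± 0.10 (edgeR adjusted p = 8.28e-05). Control IELs were lower than control IELp by -7.15 ± 0.26. For Myb 2 of the 3 control IEL libraries reached the filter's level, 1 fewer than the filter asks for. It thus needed the other group to enter both tests with control IELs, and no p-value is given for them. Without IEL replicate 3 the log2 fold changes were 6.97 for KO spleen cells over control IELs and -7.82 for control IELs over control IELp. Although the IELp genotypes did not overlap for Myb, the log2 fold change of -0.14 ± 0.07 did not pass (edgeR adjusted p = 0.237, unadjusted p = 0.0685), and 29.7% of the tested genes were without overlap in that comparison. The antisense gene Gm26577 shares 559 exonic bases with Myb and moved with it, with means of 18.1 FPM in KO spleen cells, 0.195 FPM in control IELs, 30.4 FPM in KO IELp and 33.7 FPM in control IELp. Since the strand setting of the counting is not given, reads from the shared bases cannot be told apart.

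Rmnd5a encodes a RING subunit of the CTLH ubiquitin ligase complex (chr6:71388634-71440637, minus strand). It had 146, 140.0 and 126 FPM in KO spleen cells, against 73.1, 69.2 and 64.3 FPM in control IELs. In the precursors it had 162, 174 and 163 FPM in KO IELp and 161, 173 and 172 FPM in control IELp. It was thus well expressed in every group and lowest in control IELs, and the IELp genotypes overlapped. Control IELs were lower than control IELp by a log2 fold change of -1.06 ± 0.08 (edgeR adjusted p = 5.07e-07). KO spleen cells were higher than control IELs by 0.88 ± 0.09 (edgeR adjusted p = 1.31e-05). Against KO IELp the spleen cells did not overlap, but the log2 fold change of -0.16 ± 0.07 did not pass (edgeR adjusted p = 0.0602). That value moved across the threshold without spleen replicate 1 (edgeR adjusted p = 0.0354), and the library was the highest of the spleen group. Between the IELp genotypes the log2 fold change was 0.00 ± 0.06 (edgeR adjusted p = 0.988), with a 95% interval of the fold from 0.917 to 1.09.

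**Figure D2:**
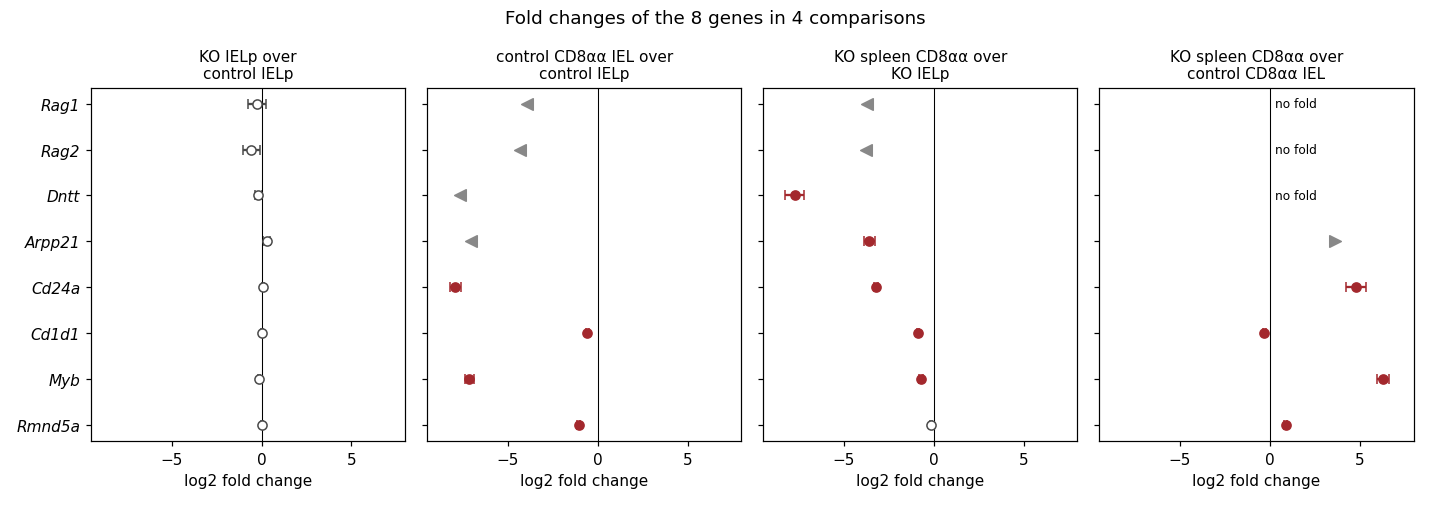
Log2 fold changes of the 8 genes in the 4 comparisons, the first-named group over the other, with SE bars. Filled points passed an edgeR adjusted p of 0.05 and open points did not. Grey triangles are bounds against the floor of 3 counts over the group. Cd24a and Myb in both comparisons with control IELs needed the other group to pass the filter on low counts. So did Dntt and Arpp21 in KO spleen cells against KO IELp. Being filled is no support for a direction at these points. All 8 IELp points are open. Cd24a and Myb lie beyond 4 on the log2 scale in both comparisons with control IELs.

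The effect of genotype in the thymus was addressed by KO against control IELp. None of the 8 genes passed the test there. In edgeR 0 of 8 had an adjusted p under 0.05, beside 13.1% of 14629 tested genes (6.48% higher and 6.58% lower), and 0 of 8 an unadjusted p under 0.05, beside 25.7%. DESeq2 also called 0 of 8. For the 4 abundant members Cd24a, Cd1d1, Myb and Rmnd5a, the 95% intervals of the fold lay between 0.818 and 1.19, whereas those of the rare Rag1 and Rag2 were several times wider. The count of genes called overall was 1911, but 1239 without KO replicate 2, 1265 without KO replicate 3 and 1270 without control replicate 2.

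Other genes of the same processes were compared from lists of known roles, chosen with earlier results of these data known. Of 14 further genes of V(D)J recombination and end joining that were tested, such as Prkdc, Xrcc5, Xrcc6 and Lig4, 0 passed between the IELp genotypes in edgeR, 2 had an unadjusted p under 0.05, and DESeq2 called 1 lower (median log2 fold change -0.03, against -0.01 over all tested genes). Of 14 regulators of RAG and early T cell genes, 3 rose in KO IELp and 3 fell. Satb1, a chromatin organiser of thymocytes, rose by 0.29 ± 0.05 (edgeR adjusted p = 7.56e-04), and Bcl11b and Foxo1 rose by 0.31 and 0.24 on the log2 scale. Id3, an inhibitor of E proteins, fell by 0.44 on the log2 scale (edgeR adjusted p = 1.09e-05), and Lef1 and Id2 fell by 0.29 and 0.24. Of 10 other double-positive thymocyte genes, Ccr9, a gut homing receptor, rose by 0.90 and Satb1 rose, Cd4 fell by 1.86, and 7 did not pass. CD4 protein was used in the sort, which took cells without it. Of 10 CTLH subunits other than Rmnd5a 1, Maea, rose by 0.22 and 0 fell, and limma on FPM values called 0. Of 7 genes of CD1d and SLAM-family signalling, 4 fell (Zbtb16 by 0.72, Slamf6 by 0.46, Slamf1 by 0.44 and B2m by 0.31 on the log2 scale) and 1, the kinase gene Fyn, rose by 0.26. Zbtb16 passed narrowly (edgeR adjusted p = 0.0495), and with median-of-ratios size factors or DESeq2 3 genes fell.

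The list of genes that rise as thymocytes mature was mostly lower in KO IELp, beside 6.58% of all tested genes called lower. Of 10 tested genes of that list 7 fell in KO IELp and 0 rose, with a median log2 fold change of -0.93. Ms4a6b had 27.7 FPM in KO and 91.4 FPM in control IELp, and Ms4a4b 59.5 FPM in KO and 167 FPM in control IELp. Of 8 proliferation genes 6 fell and 0 rose (median -0.58), with a summed level of 895 to 978 FPM in KO and 1145 to 1199 FPM in control IELp. Both lists were chosen with earlier results of these data known, so these counts are not independent of those results. The part of the listed genes' processes in the levels of the 8 genes was not tested.

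**Figure D3:**
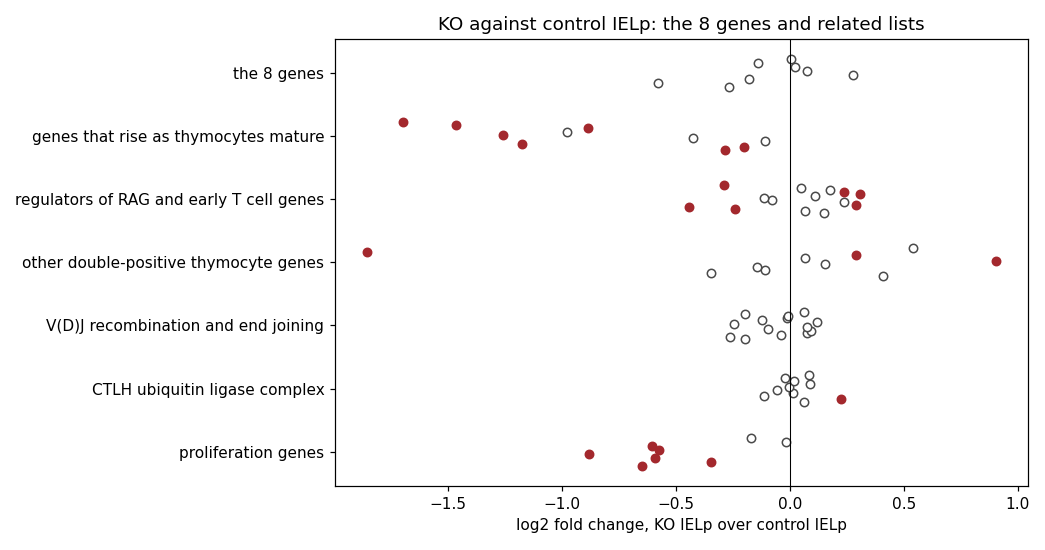
Log2 fold changes of KO over control IELp for the 8 genes and for related lists, with 1 point per tested gene and vertical scatter for legibility. The lists were chosen with earlier results of these data known. Filled points passed an edgeR adjusted p of 0.05; the 8 genes are all open and lie between -0.58 and 0.28, while 7 of 10 genes that rise as thymocytes mature and 6 of 8 proliferation genes are filled on the negative side.

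Control CD8αα IELs against control IELp compared a mature population with its precursor in mice without Cre. All 8 genes were lower in the IELs, in a comparison in which 64.8% of 14878 tested genes were called (31.9% higher and 32.9% lower) and 70.9% did not overlap. Cd1d1 and Rmnd5a reached the filter's level in every library of both groups. The other 6 needed the IELp libraries to pass it, so the count of 8 is no support for a direction. Tissue, stage and any difference in handling between the groups cannot be told apart. Among the 4 genes detected in both groups, the differences ranged from -0.57 for Cd1d1 to -7.93 for Cd24a on the log2 scale.

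Most of the other recombination genes did not pass. Of 14 tested genes of the list without the members, 5 fell in IELs and 0 rose, with a median log2 fold change of -0.18. Those that fell were Nhej1 (-1.27), Xrcc5 (-0.71), Hmgb2 (-0.33), Hmgb1 (-0.21) and Xrcc6 (-0.19); with median-of-ratios size factors 3 fell and 1 rose, and in limma on FPM values 9 fell. Of the 14 regulators 8 fell and 2 rose (median -0.39), and Lef1 with -5.55, Id3 with -5.49, Satb1 with -4.51 and Tcf7 with -2.96 fell by far more than that median. Of 10 CTLH subunits other than Rmnd5a 6 rose and 2 fell (median 0.30, and 3 rose and 2 fell in limma on FPM values). Wdr26 (-1.24) and Gid4 (-0.57) fell as Rmnd5a did, and Maea, the RING partner of Rmnd5a, rose by 0.69. Of 9 other double-positive thymocyte genes tested, 6 fell and 1, Ccr9, rose, with a median of -3.68, and Ptcra, the pre-T cell receptor chain, and Endou had 0 counts in IELs. All 8 tested gut epithelial markers rose, with sums of 518 to 702 FPM in IELs and 67.1 to 75.6 FPM in control IELp, and all 8 proliferation genes fell, with sums of 237 to 248 FPM in IELs and 1145 to 1199 FPM in control IELp. The highest epithelial sum and the highest Cd24a and Myb levels of the group were all in IEL replicate 3. In limma on FPM values the median of all genes moved to -0.21, and 34.7% of calls were higher instead of 49.2%; all 8 genes stayed lower.

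KO spleen CD8αα cells against KO IELp made the corresponding comparison in mice with Cre, though with spleen in place of gut. As in the control comparison, tissue, stage and any difference in handling between the groups cannot be told apart. Of the 6 genes that passed the filter 5 were lower in the spleen cells and 0 higher, in a comparison in which 45.0% of 14880 tested genes were called (22.6% higher and 22.4% lower) and 56.4% did not overlap. Rag1 and Rag2 had 0 counts in the spleen cells, and Rmnd5a was the tested gene that did not pass. Dntt and Arpp21 needed the KO IELp libraries to pass the filter, so 3 of the 5, Cd24a, Cd1d1 and Myb, were called without that limit. With no filter all 8 were called lower by edgeR, and for Rag1, Rag2 and Dntt, with 0 to 2 counts in the spleen cells, that is no support for a direction. In limma on FPM values 35.7% of all calls were higher instead of 50.3%, and the median of all genes was -0.10.

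Of the 14 further recombination and end joining genes, 4 rose and 5 fell in the spleen cells (median -0.12), and in limma on FPM values 2 rose and 7 fell. Atm, the kinase that senses breaks, rose by 0.74, Prkdc by 0.37 and Xrcc4 by 0.48 on the log2 scale, whereas Xrcc5, a Ku subunit, fell by 0.42. Of 10 genes that rise as thymocytes mature 9 rose and 0 fell (median 2.15), among them Ms4a4b, with 1185 FPM in KO spleen cells and 59.5 FPM in KO IELp. The other double-positive genes went both ways, 4 up and 4 down of 10. Ptcra was at least 17.2-fold lower in KO spleen cells (0 against 50 counts). Of the B cell markers 5 of 6 tested rose, as did 7 of 7 tested myeloid markers, and all 8 proliferation genes fell.

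KO spleen cells against control IELs differed in genotype and in tissue, which cannot be told apart. Of 4 tested genes 3 (Cd24a, Myb and Rmnd5a) were higher in the spleen cells and 1 (Cd1d1) was lower, beside 58.2% of 14875 tested genes called, 29.1% higher and 29.2% lower, and 66.2% without overlap. Cd24a and Myb needed the spleen libraries to pass the filter, so the count of 3 is no support for a direction. Rag1 and Rag2 had 0 counts in both groups and Dntt 2 against 0 counts, so no fold is given for them. Of 14 regulators 12 rose and 1, Id2, fell (median 0.81), with Lef1 at 441 FPM in KO spleen cells and 12.1 FPM in control IELs, and Satb1 at 387 FPM in KO spleen cells and 14.9 FPM in control IELs. Of 8 other double-positive genes tested, 7 rose and 1, Ccr9, fell (median 2.42), and in DESeq2 5 rose and 1 fell. Of 14 further recombination and end joining genes 4 rose and 3 fell (median -0.02), and in limma on FPM values 5 rose and 0 fell. All 8 tested gut epithelial markers were lower in the spleen cells, which had sums of 13.9 to 17.0 FPM against 518 to 702 FPM in control IELs. The 4 comparisons share groups in pairs, so their fold changes are not independent of each other.

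Genes with the profile nearest to each member were searched among 11216 genes with a mean of at least 1 FPM, as the root mean square (RMS) difference of log2(FPM + 1), centred on each gene's mean, over the 12 libraries. Rag1 and Cd1d1 were left out because their group means spanned less than 1 on this scale. The nearest to Myb was Lef1 (RMS difference 0.298), whose level averaged 441 FPM in KO spleen cells, 12.1 FPM in control IELs, 537 FPM in KO IELp and 668 FPM in control IELp, followed by Abca1 and C1ql3. The nearest to Cd24a were Marcks (0.206), Sox5 and Nrgn. Marcks averaged 7.85 FPM in KO spleen cells, 0.428 FPM in control IELs, 68.1 FPM in KO IELp and 61.2 FPM in control IELp. The nearest to Dntt were Lrfn4 (0.248), Prss23os and Ptger3, and those to Arpp21 were Itgb3 (0.195), Ldhb and Twsg1. Itgb3, an integrin subunit, averaged 27.9 FPM in KO spleen cells, 13.8 FPM in control IELs, 153 FPM in KO IELp and 153 FPM in control IELp. Tulp4 (0.0738), Cct6a and Cfl1 were nearest to Rmnd5a, and Tmem50b (0.170), Vim and Mad2l1 to Rag2. These likenesses are descriptions over 12 libraries in 4 groups, between which tissue, sort and any difference in handling cannot be told apart. Genes with a narrow range have small differences by this measure.

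**Figure D4:**
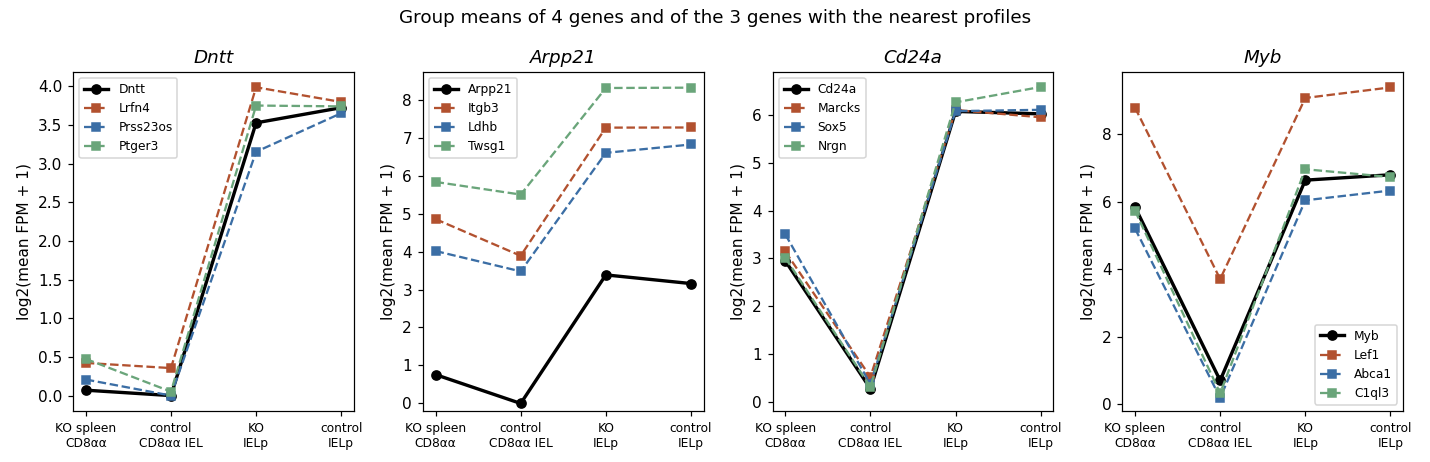
Group means of Dntt, Arpp21, Cd24a and Myb (black) and of the 3 genes with the nearest profile to each (coloured, dashed), as log2(mean FPM + 1), with lines drawn between groups to guide the eye. Dntt and its neighbours are near 0 in both CD8αα groups, while Myb, Lef1, Abca1 and C1ql3 are all lowest in control IELs and much nearer to the IELp level in KO spleen cells.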

How the data were processed

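RNA was sequenced in 12 libraries of sorted mouse T cells, prepared with SMARTer and Nextera XT kits and read as 76-base pairs, per the labels' protocols. The submitters' processing notes name bcl2fastq 2.17, Trimmomatic, STAR, HTSeq, DESeq2 and mm10. Neither strand setting nor annotation is stated there. The authors deposited counts per gene symbol, with 48663 gene rows and 5 summary rows, which were left out of library sizes. The rows for reads in no gene held 41.5% to 45.5% of each library's total, those for reads not aligned uniquely 13.1% to 18.8%, and ambiguous reads 0.669% to 0.751%. A second table deposited by the authors as FPM has the unit of CPM over the gene counts, and 100% of its values gave whole reads within 0.001. Replicates differed beyond counting noise, so none were merged.

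The deposited counts of each pair of groups were compared with the two-sided quasi-likelihood test of edgeR 4.0.16 (R 4.3.3) after filterByExpr and TMM scaling. P-values were adjusted over all tested genes by the Benjamini-Hochberg method, with a threshold of 0.05. SEs are the log2 fold change over the square root of F, and intervals use the t quantile at edgeR's degrees of freedom. A group with 0 counts was set to a floor of 3 counts over the group; ratios with 1 to 3 counts have exact 95% counting intervals. Without molecular identifiers, both cover counting error alone. Tested on simulated counts with 14629 genes for the IELp comparison, the fit found 56.7% of 1.5-fold changes, 82.1% of 2-fold and 93.9% of 4-fold ones, and 5.49% of its calls were false. With 14878 genes simulated for control IELs and control IELp, 49.3%, 73.1% and 89.4% were found, with 10.2% false calls. False calls were 3.77% for KO spleen cells against KO IELp and 6.92% against control IELs. Only a small part of the genes was altered in each simulation, whereas 64.8% were called in the measured control IELs against control IELp. These rates therefore need not hold for the measured comparisons. Alternatives were median-of-ratios size factors, DESeq2 1.42.0, no filter, a replicate block, 1 fit of 12 libraries, limma 3.58.1 on log2(FPM + 1) and log2(FPM + 0.1), and leaving out each library.

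All 8 genes were described in every library. From each list the text names genes with small adjusted p-values or at 0 in a whole group, and further members picked with their values in view. Of 18 listed genes of V(D)J recombination 17 were matched by symbol. Members and lists were chosen with earlier results of these data known. Of the symbols 27 read as dates and were not named. Promoter windows are from RefSeq, and positions from GENCODE M21.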

Additional observations from a re-analysis of the deposited data

How the results depend on the processing

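Of the fold changes of the 8 genes under the alternatives, 332 kept their direction where called and their side of the threshold, 4 moved past it, 2 no longer passed and 0 reversed. In KO against control IELp 0 of 8 genes were called under all 13 alternatives, while the count over all genes ran from 1239 to 1810 when 1 library was left out. In control IELs against control IELp all 8 stayed lower under all 13, 6 of them genes that needed the IELp libraries to pass the filter. In KO spleen cells against KO IELp 8 were lower with no filter on low counts, and 5 to 7 when 1 library was left out. Rmnd5a passed there with no filter (adjusted p = 0.0304, edgeR), in limma on log2(FPM + 1) and log2(FPM + 0.1) (0.00297 and 0.00406) and without spleen replicate 1. In KO spleen cells against control IELs the number of members lower was 0 in both limma settings, where the median of all genes was 0.11 with an added 1. The cause was not tested.

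Deviations of libraries with the same replicate number correlated between -0.0361 and 0.0825. In KO spleen cells against KO IELp these values were 0.0253 to 0.0443, against at most 0.00693 for different numbers. Between the IELp genotypes they were -0.0361 to -0.018, against at least -0.0107 for different numbers. With 3 libraries per group, such correlations cannot decide whether the numbers pair the samples. With the replicate number as a block edgeR called 0 of 8 genes between the IELp genotypes, and 1541 genes in all. It called 8 of 8 lower in control IELs against control IELp, 5 lower in KO spleen cells against KO IELp, and 3 higher and 1 lower in KO spleen cells against control IELs. Without the block, 64.8%, 45.0% and 58.2% of all tested genes were called in these comparisons. Members that needed 1 group to pass the filter are again no support for a direction. Depth limits Rag1 and Rag2 most, with at most 23 counts in a library.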

Other observations

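Genes of double-negative thymocytes, the stage before the double-positive one, were also looked at. In KO spleen cells against KO IELp 3 of 7 tested rose and 2 fell, beside 45.0% of all tested genes called. In control IELs against control IELp 3 of 5 fell and 0 rose, beside 64.8%. In KO spleen cells against control IELs 5 of 7 rose and 2 fell, beside 58.2%. Genes near 0 in 1 group needed the other group to pass the filter, so these counts are no support for a direction. Kit, the receptor of stem cell factor, averaged 205 ± 32.0 FPM in KO spleen cells, 298 ± 11.9 FPM in control IELs, 671 ± 23.0 FPM in KO IELp and 692 ± 79.3 FPM in control IELp (SD, n = 3 each). It fell by 1.60 on the log2 scale in KO spleen cells against KO IELp (edgeR adjusted p = 5.13e-09) and by 0.99 in control IELs against control IELp (edgeR adjusted p = 1.79e-06). Hhex, a homeobox factor, averaged 20.6 ± 0.612 FPM in KO spleen cells, 3.95 ± 0.855 FPM in control IELs, 4.85 ± 0.767 FPM in KO IELp and 5.20 ± 0.130 FPM in control IELp. It rose by 2.21 on the log2 scale in KO spleen cells against KO IELp (edgeR adjusted p = 8.46e-08). Spi1 had 145 counts in KO spleen cells and 0 counts in control IELs and KO IELp. Hhex and Spi1 are also expressed in B cells and Spi1 in myeloid cells, whose markers were found in the same spleen libraries, and the part of those cells was not tested. Between the IELp genotypes, 5 of the 9 listed double-negative genes were tested and 0 passed in edgeR or DESeq2 (1 had an unadjusted p under 0.05), with a median log2 fold change of -0.08.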
